A study of Mus musculus with 10 samples.

Results

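The 8 genes described here encode connexins of the neonatal mouse cochlea: Gjb2, Gjb6, Gjb1, Gja1, Gja4, Gja5, Gjc1 and Gjd2. They were chosen by gene symbol from the 54532 genes of the count table, to cover the epithelial and fibrocyte connexins together with glial, vascular and neuronal ones. All 8 were among the 17937 genes that passed the filter on low counts. Connexins assemble in the membrane into half-channels, and half-channels of adjoining cells dock into gap junction channels that pass ions and small molecules. In the cochlea, gap junctions link supporting cells with one another and fibrocytes of the lateral wall with one another, and these networks are thought to carry potassium released by hair cells back towards the stria vascularis. Loss of GJB2, the human counterpart of Gjb2, is a frequent cause of inherited deafness.

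The tissue was the cochlea of female mice on postnatal day 1, freed of its thin bony capsule, with the left and right cochlea of an animal combined. Every animal carried loxP sites in both copies of Esrrg, which encodes a nuclear receptor, the estrogen-related receptor gamma. The control group (Esrrgfl/fl) had 5 libraries and no Cre, and the conditional knockout group (Esrrgfl/fl;Sox10-Cre, labelled cKO) had 5 libraries. Sox10-Cre places the Cre recombinase under Sox10 regulatory sequence, which is known to be active in the otic epithelium, in glia and in melanocytes. No group carried Sox10-Cre without the floxed alleles, so an effect of the transgene and one of the deletion cannot be told apart. Each library stands for 1 animal.

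Library totals ran from 33.5 to 41.8 M counts (M, mega). Esrrg itself was higher, not lower, in the libraries labelled cKO, with 48.5 to 64.7 CPM (counts scaled to a library total of 1000000) in the controls and 70.7 to 108.9 CPM in the others, a log2 fold change of 0.62 (SE 0.117, edgeR adjusted p = 0.0259). With single libraries left out this adjusted p reached up to 0.0992. The gene count covers all exons and does not show whether one was deleted, so the second group is called by its label throughout and every direction given here rests on that label. On the first principal component of the 500 most variable genes, control 2 lay at -29 where the other controls lay between -4.11 and 5.7, and cKO 5 lay at 17.9 where the others of its group lay between -0.69 and 1.77. The 15 listed genes of cochlear epithelium and supporting cells were all tested and summed to 2941.6 to 3932.6 CPM, and Fgf10, a growth factor of the prosensory region, was the only one called (fell by 0.51 on the log2 scale, SE 0.101, edgeR adjusted p = 0.036). Of the other marker lists, apart from 2 neuron genes given with Gjd2, 1 gene of marginal cells (Sgpp2) and 3 of brain glia (Olig1, Olig2 and Aqp4) were called lower. Of all tested genes, 0.619% were called, with 0.546% lower. The 8 skeletal muscle genes summed to at most 5.14 CPM and Myod1 had 0 counts. Cartilage and bone genes were plentiful, at 8784.2 to 11449.2 CPM in controls and 9443.8 to 11688.2 CPM in the libraries labelled cKO. Col2a1 alone averaged 9001.8 ± 951.3 and 9770.9 ± 779.5 CPM, and Col10a1 ranged from 202 to 54945 counts. Erythroid genes summed to 715.0 to 2968.7 CPM in controls and 446.0 to 1297.8 CPM in the libraries labelled cKO. In such whole-tissue RNA, fewer cells of a type and less RNA per cell cannot be told apart.

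The levels of the 8 connexins spanned a wide range when compared per length, in FPKM (fragments per kilobase of gene length per library total of 1000000). Gjb2 led with 201.2 ± 15.4 FPKM in the controls (SD, n = 5), followed by Gjb6 with 35.4 ± 2.28 FPKM. Gjb2 exceeded Gjb6 by 5.68 times and Gjb6 exceeded Gjc1 by 3.71 times, each in 10 of 10 libraries. The middle of the order held Gjc1 with 9.54 ± 0.293, Gja1 with 6.55 ± 1.61 and Gja4 with 4.94 ± 0.825 FPKM. Gja1 and Gja4 overlapped among the controls, and Gjc1 and Gja1 overlapped among the libraries labelled cKO. Within libraries, Gjc1 exceeded Gja1 in 10 of 10 and Gja1 exceeded Gja4 in 8 of 10. At the low end were Gjd2 with 1.93 ± 0.136, Gjb1 with 0.957 ± 0.0753 and Gja5 with 0.283 ± 0.0572 FPKM, which did not overlap one another in the controls. In the libraries labelled cKO, Gjd2 overlapped Gjb1 and Gjb1 overlapped Gja5, while within libraries Gjd2 exceeded Gjb1 in 10 of 10 and Gjb1 exceeded Gja5 in 9 of 10. Across all 20 annotated connexin genes, Gjb2 made up 72.2% ± 2.38 of the summed connexin FPKM in the controls and 75.6% ± 1.64 in the libraries labelled cKO, and Gjb6 made up 12.8% and 11.7%.

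**Figure D1:**
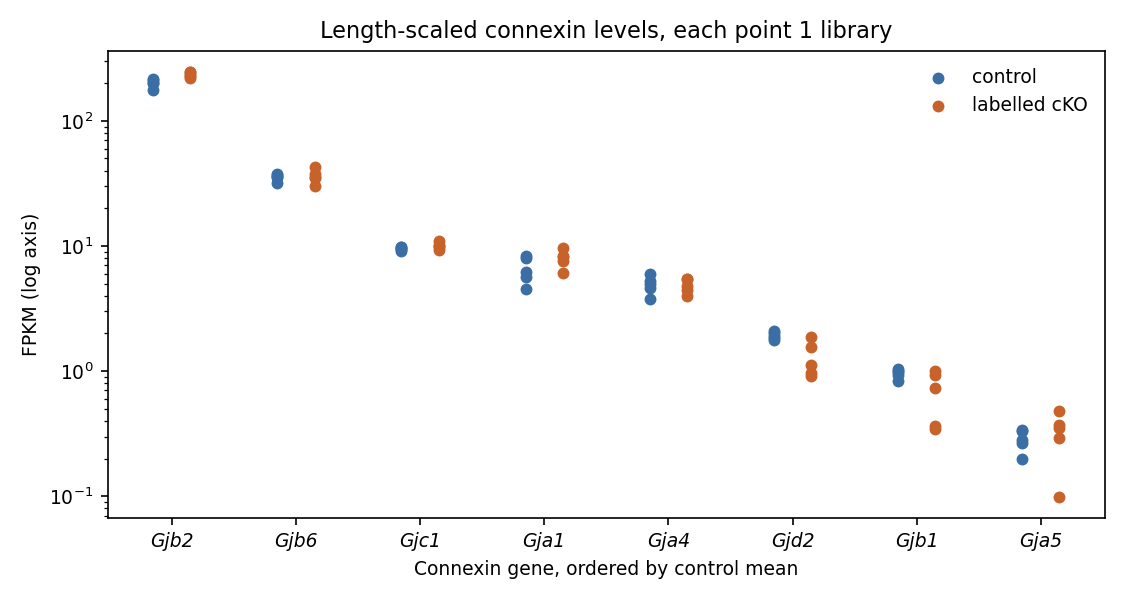
FPKM of each of the 8 connexins on a log axis, with genes ordered by their control mean and each point 1 library (blue, control; orange, labelled cKO). Gjb2 lay above every other connexin in all 10 libraries, and Gja5 had the lowest control mean.

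The genotype comparison called none of the 8 connexins. At an edgeR adjusted p under 0.05, 0 of 8 passed, where 0.619% of all tested genes passed (111 of 17937, with 0.546% lower and 0.0725% higher). DESeq2 and limma-voom also called 0 of the 8, where they called 307 and 348 of the 17937 genes. At an unadjusted edgeR p under 0.05 there were 2, Gjb2 and Gjd2, where 9.65% of all tested genes lay under it. The median log2 fold change of the 8 was 0.04 and that of all tested genes was -0.00718. Of the 8, 5 lay above 0, where 48.3% of all tested genes did. Only Gjb2 showed no overlap in CPM between the groups, against 2.84% of all tested genes.

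**Figure D2:**
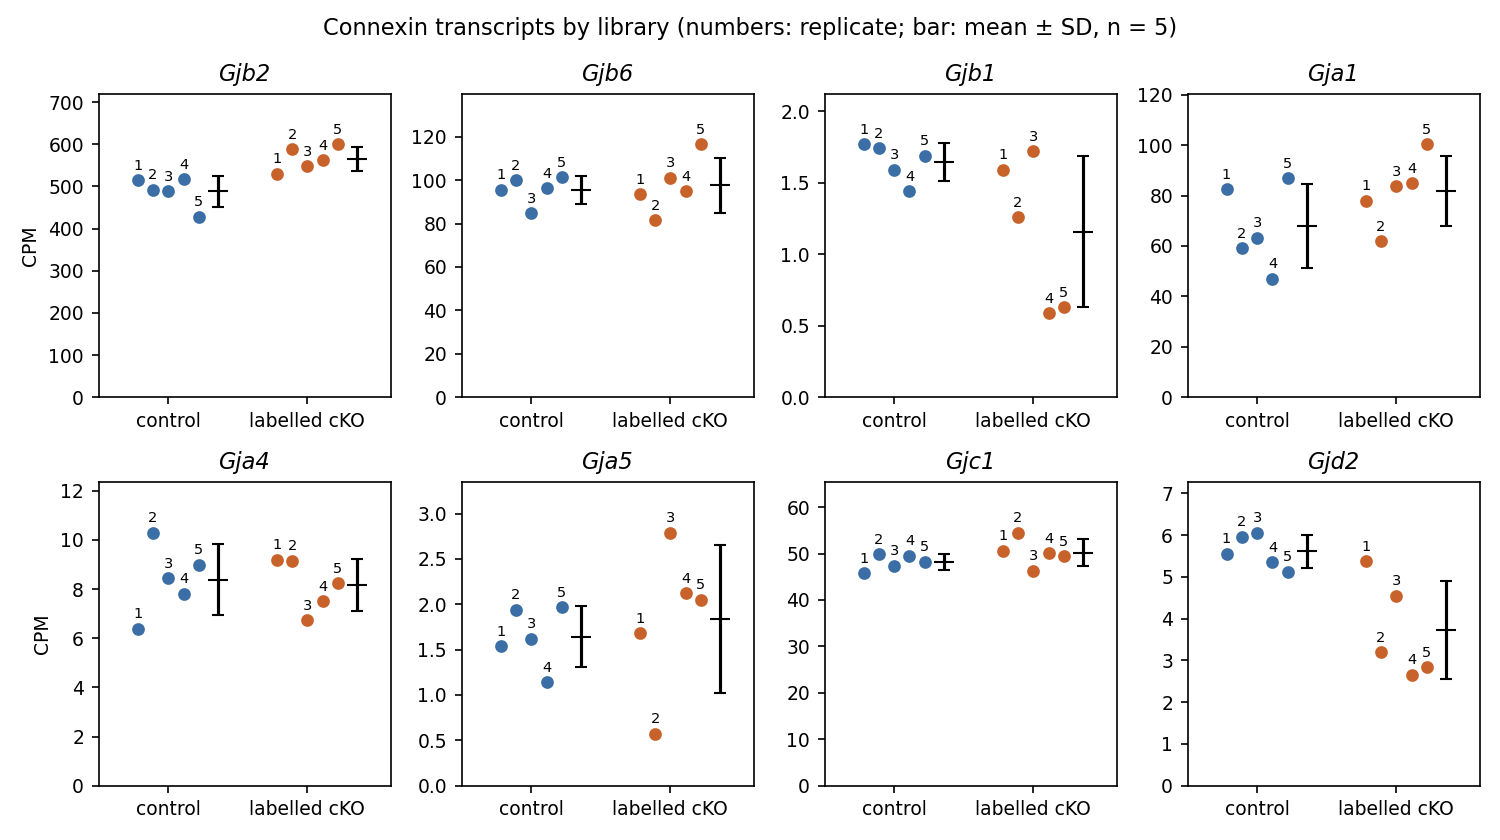
CPM of each connexin in each library (y axes start at 0; numbers give the replicate; bars are mean ± SD, n = 5 each). The groups separate for Gjb2, 4 of 5 libraries labelled cKO lie below all controls for Gjd2, and cKO 4 and cKO 5 have the lowest Gjb1 values.

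Gjb2 encodes Cx26, the main connexin of the supporting cell and fibrocyte networks (ENSMUSG00000046352; GRCm38 chromosome 14, 57098600 to 57104702, minus strand). Control libraries 1 to 5 held 514.5, 492.3, 488.3, 517.1 and 428.2 CPM, from 16740 to 22063 counts. The libraries labelled cKO held 530.4, 588.6, 548.0, 562.5 and 600.4 CPM in the same order. Every library labelled cKO therefore lay above every control, with control 5 the lowest of all and control 4 only slightly below cKO 1. Averaged over 5 libraries per group, Gjb2 stood at 488.1 ± 35.9 and 566.0 ± 28.7 CPM (mean ± SD), and edgeR estimated a log2 difference of 0.21 (SE 0.0781, 95% interval 0.05 to 0.38) with an adjusted p of 0.383. The interval corresponds to 1.03 to 1.3 times the control level. The exact two-sided permutation test of this gene alone gave p = 0.00794, the smallest value that 252 assignments allow, without adjustment over genes. Without control 2 the log2 fold change was 0.21, and without cKO 5 it was 0.19.

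Gjb6 encodes Cx30, which is known to form mixed channels with Cx26 in the cochlea (ENSMUSG00000040055; chromosome 14, 57123303 to 57133611, minus strand). The 2 genes lie 18.6 kb apart on the same strand, with the predicted gene Gm4491 between them at 4 to 12 counts per library. Gjb6 measured 95.5, 99.9, 84.7, 96.4 and 101.4 CPM in controls 1 to 5 and 93.6, 81.5, 101.1, 94.9 and 116.6 CPM in the libraries labelled cKO. The groups overlapped, and both the lowest value (cKO 2) and the highest (cKO 5) belonged to the libraries labelled cKO. Its log2 fold change was 0.03 (SE 0.0925, 95% interval -0.17 to 0.23; edgeR adjusted p = 0.935), and it was -0.04 without cKO 5 and -0.01 without control 3. The interval reaches from 0.889 to 1.17 times the control level.

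Because Gjb2 and Gjb6 are neighbours whose products join in the same channels, their ratio was compared within libraries, which removes the library scaling. The Gjb2 to Gjb6 FPKM ratio was 5.99, 5.48, 6.41, 5.96 and 4.69 in controls 1 to 5 and 6.3, 8.03, 6.03, 6.59 and 5.72 in the libraries labelled cKO. The groups overlapped, with 2 of 5 libraries labelled cKO above the highest control and the largest ratio in cKO 2. The means were 5.71 ± 0.655 and 6.53 ± 0.896, a difference of 0.19 on the log2 scale that did not pass an exact two-sided permutation test (p = 0.143) and was 0.12 without control 5 or without cKO 2.

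The start regions of this gene pair are shown because they differ in base composition and in the short motifs they hold. Each window is the 250 bases before the gene's start in RefSeq on GRCm38.p6, read 5′ to 3′ on the gene's strand. Capitals mark GGGCGG, the GC box bound by Sp family factors, on either strand.
Gjb2, chr14:57104703-57104952, minus strand: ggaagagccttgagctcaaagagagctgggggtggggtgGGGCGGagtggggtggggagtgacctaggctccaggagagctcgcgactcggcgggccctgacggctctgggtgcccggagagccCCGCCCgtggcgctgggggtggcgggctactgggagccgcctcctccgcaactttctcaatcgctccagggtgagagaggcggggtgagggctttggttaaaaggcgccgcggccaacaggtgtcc
Gjb6, chr14:57133612-57133861, minus strand: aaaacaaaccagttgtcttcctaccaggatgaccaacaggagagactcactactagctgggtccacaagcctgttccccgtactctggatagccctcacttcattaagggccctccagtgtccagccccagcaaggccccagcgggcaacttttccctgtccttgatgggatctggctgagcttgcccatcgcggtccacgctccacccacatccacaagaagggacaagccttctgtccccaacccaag
The Gjb2 window held 69.2% G and C and 2 GC boxes, and the Gjb6 window held 56.8% and none. The median over 32851 such windows was 52.4%, and 32.7% of them held GGGCGG. Neither window held TATAAA, found in 12.4% of windows, ACAAAG, a core sequence of SOX factors found in 16.5%, or AAGGTCA, the core of the element bound by estrogen-related receptors, found in 4.08%. All motifs were searched on both strands, and a motif missing from such a window says only that these letters are not in it.

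Despite their kinship, the connexins share only short stretches of exact coding sequence. The coding sequence is 678 bases in Gjb2 and 783 bases in Gjb6, each in 1 coding exon, and 75.7% of the aligned bases were identical, the highest share among the 28 pairs of the 8 genes. Their longest exact shared stretch was 20 bases, far shorter than a read of 150 bases, and is shown here from the GENCODE M21 annotation.
Gjb2 and Gjb6, from base 214 of both coding sequences: tctcacatccggctctgggc
No stretch of 75 bases in transcripts of 7 of the 8 genes occurred in a transcript of another gene. In Gja5, 14.0% of such stretches did, shared with Zfp697 and with Gpr89, whose exons overlap those of Gja5 on the opposite strand.

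Gja1 encodes Cx43, widespread in connective tissue, cartilage and bone cells and early otic tissue (ENSMUSG00000050953; chromosome 10, 56377330 to 56402513, plus strand). Its CPM was 82.6, 59.2, 63.2, 47.0 and 86.9 in controls 1 to 5 and 77.9, 61.9, 83.7, 85.0 and 100.4 in the libraries labelled cKO. The groups overlapped widely, since controls 1 and 5 matched the libraries labelled cKO while control 4 was the lowest and cKO 5 the highest. The coefficient of variation among controls was 24.6%, where counting alone would give 1.97%. The means of 67.8 ± 16.6 and 81.8 ± 13.9 CPM gave a log2 fold change of 0.27 (SE 0.16, 95% interval -0.07 to 0.61; edgeR adjusted p = 0.622), and it was 0.16 without control 4. The part of cartilage and bone content in the Gja1 values was not tested.

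Gjb1 encodes Cx32, known from myelinating Schwann cells (ENSMUSG00000047797; chromosome X, 101376378 to 101385629, plus strand). It was scarce, with 76, 62, 55, 52 and 66 counts in controls 1 to 5 and 53, 44, 69, 23 and 23 counts in the libraries labelled cKO. On the CPM scale the controls lay between 1.44 and 1.77, cKO 1 and cKO 3 lay among them at 1.59 and 1.72, cKO 2 was lower at 1.26, and cKO 4 and cKO 5 were the lowest at 0.587 and 0.628. The coefficient of variation was 8.13% in controls, below the 12.7% that counting alone gives, and 45.6% in the libraries labelled cKO, where counting gives 15.4%. The log2 fold change was -0.51 (SE 0.285, 95% interval -1.13 to 0.1; edgeR adjusted p = 0.605), and it was -0.36 without cKO 5.

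Of the 10 start windows that RefSeq gives for 7 of the 8 genes, 1 held the estrogen-related receptor element in full, TCAAGGTCA, which contains AAGGTCA. It is 1 of 4 windows of Gjb1, which has several annotated starts, and it lies inside the span of the gene given above. The element reads TGACCTTGA on the gene's strand and begins 108 bases before the start that this window precedes. The window is printed because 0.387% of all windows hold this element; the match is a description of the sequence and not evidence of a bound site.
Gjb1, chrX:101381868-101382117, plus strand, with the element in capitals: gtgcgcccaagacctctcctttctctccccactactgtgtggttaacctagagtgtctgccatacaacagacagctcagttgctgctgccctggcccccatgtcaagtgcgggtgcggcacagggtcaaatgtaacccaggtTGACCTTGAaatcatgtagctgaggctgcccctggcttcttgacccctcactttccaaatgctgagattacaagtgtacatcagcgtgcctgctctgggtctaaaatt

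Markers of glia were also low in the libraries where Gjb1 was lowest. Of 13 listed genes of Schwann cells and satellite glia, 12 had negative log2 fold changes, where 48.3% of all tested genes were above 0. The median of the 13 was -0.37, with 0 called and 7 at an unadjusted edgeR p under 0.05. Of all tested genes, 0.619% were called and 9.65% lay under that p. The summed level of the 13 glial genes was 1261.3 to 1538.7 CPM in controls and 839.4 to 1331.8 CPM in the libraries labelled cKO, lowest in cKO 4 and next lowest in cKO 5. Relative to the mean log2 CPM of this list, Gjb1 differed by -0.22 between the groups (exact permutation p = 0.389, 0.698 adjusted over 8 connexin and list pairs). This difference was -0.13 without cKO 4, -0.07 without cKO 5 and -0.11 against the median of the list. The contrast is a description of level relative to these markers, and the part of glial content in the Gjb1 values was not tested.

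Gjd2 encodes Cx36, the connexin of electrical synapses between neurons (ENSMUSG00000068615; chromosome 2, 114009601 to 114013619, minus strand). Controls 1 to 5 had 5.55, 5.96, 6.06, 5.35 and 5.12 CPM, from 193 to 238 counts. In the libraries labelled cKO the values were 5.37, 3.2, 4.55, 2.66 and 2.84 CPM, from 104 to 183 counts. Of these, 4 of 5 lay below every control and cKO 1 lay among the controls. The means were 5.61 ± 0.4 and 3.72 ± 1.18 CPM, a log2 fold change of -0.59 (SE 0.188, 95% interval -1.0 to -0.19) with an edgeR adjusted p of 0.287. Over the alternative settings the adjusted p of Gjd2 lay between 0.0729 and 0.612. Exons of Gjd2 overlap those of A530058N18Rik on the opposite strand, and without a stated use of strand reads from the overlap cannot be told apart.

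Neuronal markers were also lower in most libraries labelled cKO. Of 12 listed neuron genes, 9 had negative log2 fold changes and the median was -0.28, with 2 called: Elavl4, a neuronal RNA-binding protein, fell by 0.74 (SE 0.0902) and Slc17a7, the vesicular glutamate transporter of spiral ganglion neurons, fell by 1.13 (SE 0.138) on the log2 scale, each with an edgeR adjusted p of 0.00108. Of all tested genes, 48.3% had a log2 fold change above 0 and 0.619% were called. The summed level of the neuron list was 1197.5 to 1356.7 CPM in controls and 732.8 to 1433.8 CPM in the libraries labelled cKO, lowest in cKO 4 and highest in cKO 1. Relative to the mean of the list, Gjd2 stood at -3.6 ± 0.13 log2 units in controls and at -3.99 ± 0.22 in the libraries labelled cKO, a difference of -0.39 with an exact permutation p of 0.0159, or 0.0635 adjusted over 8 pairs. Control 5 and cKO 1 both stood at -3.81, and cKO 3 at -3.76 lay within the control range, so the groups overlapped.

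**Figure D3:**
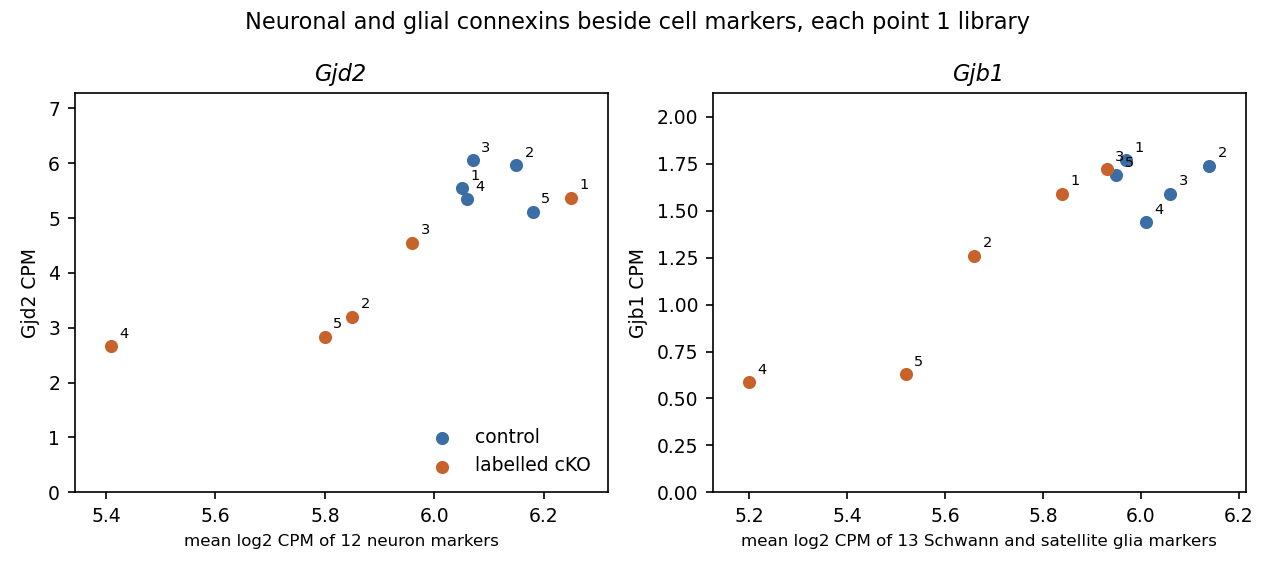
CPM of Gjd2 (left) and Gjb1 (right) on axes from 0, against the mean log2 CPM of the neuron and of the Schwann and satellite glia markers, each point 1 library with its replicate number. cKO 4 had the lowest level of both connexins and of both marker lists, and cKO 1 had the highest level of the neuron markers.

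Among the vascular connexins, Gja4 encodes Cx37 of endothelial cells (ENSMUSG00000050234; chromosome 4, 127311421 to 127314039, minus strand). Controls 1 to 5 measured 6.39, 10.3, 8.44, 7.82 and 9.0 CPM, and the libraries labelled cKO measured 9.2, 9.15, 6.74, 7.51 and 8.25 CPM. All values of the second group lay inside the control range. The log2 fold change was -0.04 (SE 0.142, 95% interval -0.34 to 0.26; edgeR adjusted p = 0.942), and it was 0.04 without control 2 and 0.02 without cKO 3.

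Gja5 encodes Cx40 of arterial endothelium (ENSMUSG00000057123; chromosome 3, 96904693 to 97077416, plus strand). It had 66, 69, 56, 41 and 77 counts in controls 1 to 5 and 56, 20, 112, 83 and 75 counts in the libraries labelled cKO. Both extremes fell in the libraries labelled cKO, with 0.572 CPM in cKO 2 and 2.79 CPM in cKO 3, and their coefficient of variation was 44.2%, against 20.7% in controls. For Gja5 the log2 fold change was 0.17 (SE 0.314, 95% interval -0.5 to 0.84; edgeR adjusted p = 0.881) and -0.03 without cKO 3. The interval covers 0.705 to 1.79 times the control level.

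Gjc1 encodes Cx45, known from smooth muscle and other contractile or developing cells (ENSMUSG00000034520; chromosome 11, 102799579 to 102819700, minus strand). Among controls its levels were the most even of the 8, with a coefficient of variation of 3.51%, at 45.7, 49.9, 47.4, 49.5 and 48.2 CPM in controls 1 to 5 and 50.6, 54.5, 46.3, 50.1 and 49.4 CPM in the libraries labelled cKO. Although 3 of 5 libraries labelled cKO lay above the highest control, cKO 3 lay near the lowest. For Gjc1 the log2 fold change was 0.06 (SE 0.0702, 95% interval -0.09 to 0.21; edgeR adjusted p = 0.799), so the interval covers 0.939 to 1.16 times the control level. Without cKO 2 the log2 fold change was 0.025.

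Each connexin was also set against markers of a cell type known to use it, to give its level relative to that tissue component. None of the 8 pairs passed after adjustment, with a smallest adjusted p of 0.0635 for Gjb2 and for Gjd2. The exact test allows no p below 0.00794, so 1 pair alone could not fall below 0.0635 after adjustment. Gjb2 stood at this limit, so its failure to pass decides nothing. Relative to the mean of 15 epithelial and supporting cell genes, Gjb2 stood at 2.16, 2.24, 2.15, 2.09 and 2.07 log2 units in controls 1 to 5 and at 2.4, 2.54, 2.28, 2.38 and 2.47 in the libraries labelled cKO. The groups did not overlap, and the difference of 0.27 had an exact permutation p of 0.00794. Against the median of the same list the difference was 0.22, with an exact permutation p of 0.381 adjusted over 8 pairs. The marker list itself differed by -0.06, with 8 of its genes positive and 7 negative. Gjb2 is also a connexin of fibrocytes, but it was not set against fibrocyte genes. Those summed to 7199.3 to 7996.5 CPM in controls and 7957.3 to 8918.0 CPM in the libraries labelled cKO. For Gjb6 against the same list the difference was 0.08, and it was 0.27 for Gja1 against 12 fibrocyte and mesenchyme genes, -0.06 for Gja4 against 10 endothelial genes, 0.11 for Gja5 against 7 arterial genes and -0.03 for Gjc1 against 9 pericyte and smooth muscle genes, all with an exact permutation p of at least 0.254. The sign for Gja4, Gja5 and Gjc1 turned when single libraries were left out, and the difference for Gja1 was 0.14 without control 4.

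**Figure D4:**
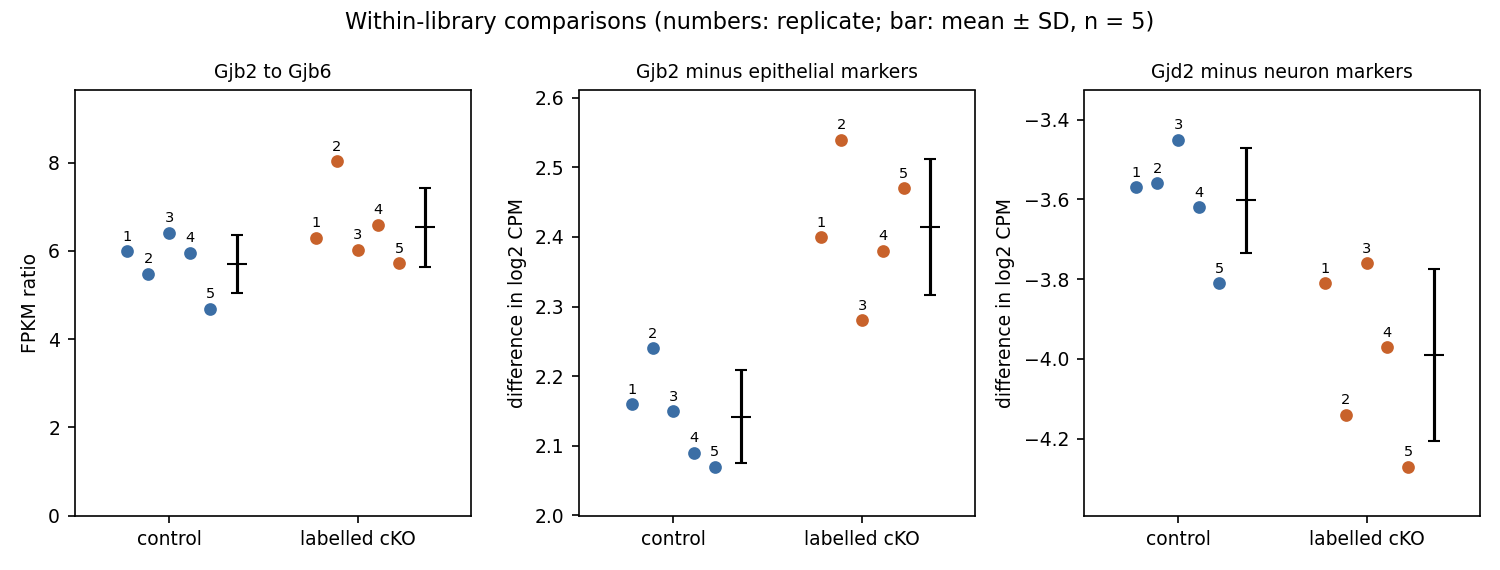
The Gjb2 to Gjb6 FPKM ratio (left, axis from 0), and Gjb2 and Gjd2 minus the mean log2 CPM of epithelial and of neuron markers (middle and right, axes not from 0), per library with mean ± SD (n = 5 each). Only the middle panel separates the groups, at 2.07 to 2.24 against 2.28 to 2.54.

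The other 12 connexin genes were mostly silent at this depth. Only 4 passed the filter, with 0 called and 1 at an unadjusted edgeR p under 0.05, where 9.65% of all tested genes lay under it. Gjc3 encodes Cx29, a connexin of myelinating glia, and was the most abundant of them at 14.9 ± 0.924 FPKM in controls, a level between those of Gjb6 and Gjc1. Its CPM was 59.6, 63.5, 65.6, 69.0 and 69.2 in controls 1 to 5 and 52.0, 48.8, 62.5, 41.2 and 56.0 in the libraries labelled cKO. Here 4 of 5 libraries labelled cKO lay below every control, and cKO 4 was again the lowest. The log2 fold change of Gjc3 was -0.33 (SE 0.102, 95% interval -0.55 to -0.11; edgeR adjusted p = 0.272). Gja3, next to Gjb2 on chromosome 14, was far lower than its neighbour, at 1.27 ± 0.354 CPM in controls. Gje1 had 0 counts in all 10 libraries, which allows a level of up to 0.07 to 0.0899 CPM depending on the library, a limit of counting error only.

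Pannexins, channel proteins of the same topology that do not normally form gap junctions, were tested for comparison. Of the 3, 0 were called and 0 lay at an unadjusted edgeR p under 0.05, where 9.65% of all tested genes did. Panx1 had 41.7 ± 1.94 and 38.5 ± 2.33 CPM and a log2 fold change of -0.12 (SE 0.0738), and Panx2 had 8.9 ± 0.429 and 8.65 ± 1.89 CPM and a log2 fold change of -0.04 (SE 0.138). Panx3, known from cartilage and bone, varied most, from 8.45 to 62.4 CPM among controls, and had a log2 fold change of -0.61 (SE 0.498).

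**Figure D5:**
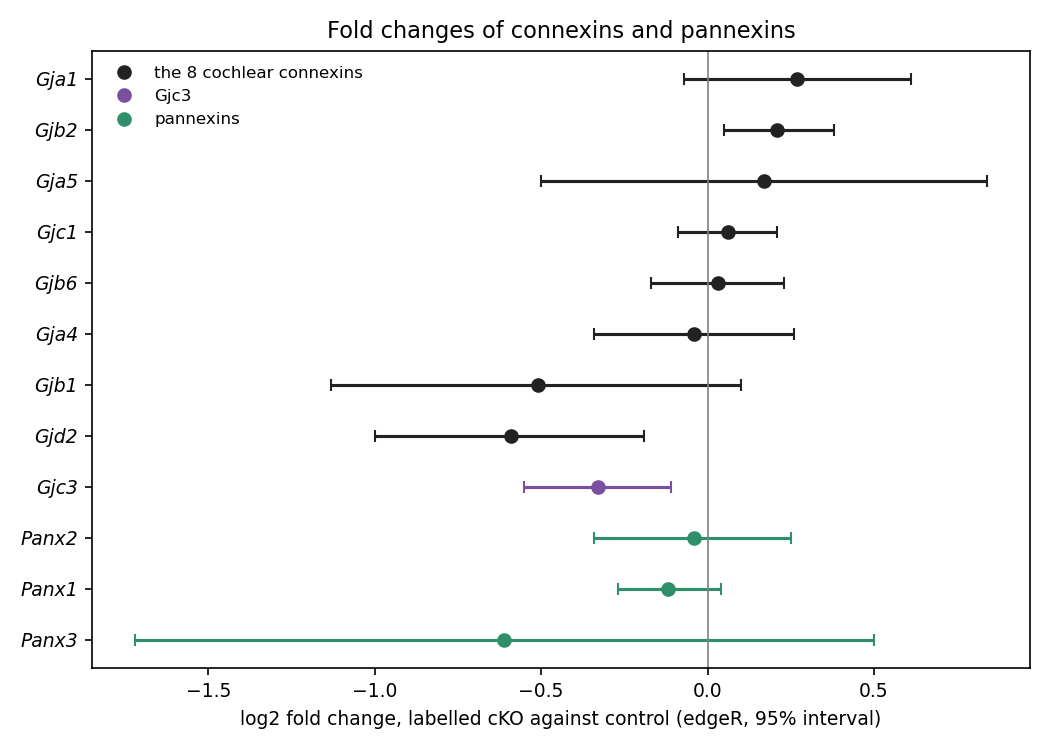
Log2 fold changes of the libraries labelled cKO against controls with 95% intervals from edgeR, for the 8 connexins (black), Gjc3 (purple) and the pannexins (green). The unadjusted intervals of Gjb2, Gjd2 and Gjc3 lie to 1 side of 0, and no plotted gene passed the adjusted threshold.

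The potassium route served by these channels was examined through 19 genes of potassium and endolymph transport, none of them a connexin. All 19 were tested, 13 had positive and 6 negative log2 fold changes, and the median was 0.14. Of all tested genes, 48.3% lay above 0, 0.619% were called and 9.65% had an unadjusted edgeR p under 0.05. Of the 19, 0 were called and 4 lay under that unadjusted p. Among these 4 was the sodium pump subunit Atp1b2, which averaged 163.9 ± 25.0 CPM (SD) among controls against 194.1 ± 12.2 CPM, a log2 fold change of 0.24 (SE 0.1) and an edgeR adjusted p of 0.463. The groups overlapped in CPM for all 19 genes. Among 10 genes for proteins that bind, traffic or turn over connexins, 8 had positive and 2 negative log2 fold changes, with a median of 0.04. Beside the same shares of all tested genes, 0 of the 10 were called and 1 lay at an unadjusted p under 0.05. That gene was Tjp1, the scaffold ZO-1 that binds the tail of Cx43, with 310.0 ± 70.0 and 395.5 ± 50.7 CPM, a log2 fold change of 0.35 (SE 0.153) and an edgeR adjusted p of 0.487. Others with small unadjusted p were Nedd4, a ubiquitin ligase of Cx43 (log2 fold change 0.2, SE 0.101) and Tsg101, a sorting protein (-0.12, SE 0.0855).

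The genes whose pattern across libraries was most like each connexin were ranked by Pearson's r of log2 CPM over the 10 libraries, after each group's mean was subtracted. With so many genes and so few libraries high values arise readily, and the libraries share depth and composition, so the ranking is only a description. Gjb2 was most like Mob3b (r = 0.918), Arrdc4 (0.918) and Scrib (0.912). For Gjb6 the leading genes were Gm13620 (0.961), Zfp286 (0.952) and Gm45251 (0.939), and for Gja1 they were Zfp160 (0.957), Helq (0.956) and Zfp112 (0.939). Gjb1 was closest to Cpa4 (0.939), Krt222 (0.904) and Fam81a (0.895), and Gjd2 to Tmem130 (0.978), with Ankrd34a (0.96) also among its 3 closest. The vascular connexins led with Isca2 (0.969), Fah (0.962) and Ppic (0.962) for Gja4, C130060K24Rik (0.946), Ero1lb (0.934) and Zfp595 (0.933) for Gja5, and Plppr2 (0.978), Gm14168 (0.949) and Hmgb3 (0.946) for Gjc1. None of these genes was called between the groups, with edgeR adjusted p of at least 0.13.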

How the data were processed

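Counts per Ensembl gene and FPKM values were deposited by the authors for 10 libraries, with columns matched through the library names in the labels. Per the submitters' processing notes, STAR 2.5, HTSeq 0.61 and DESeq2 2 were used and the build was mm10; annotation and use of strand are not given in the sources used here. Symbols and positions came from GENCODE M21 (GRCm38), and promoter windows from RefSeq.

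The deposited counts were filtered with edgeR 4.0.16 (filterByExpr, minimum of 10 counts), scaled by TMM factors and tested by genotype with the robust quasi-likelihood F-test (R 4.3.3), with Benjamini-Hochberg adjustment over all 17937 tested genes and a threshold of 0.05. Intervals are the log2 fold change plus or minus the 95% t quantile times its SE, which was derived from the F statistic. The FPKM values deposited by the authors were used to compare levels between genes, and log2 CPM (prior count 2) for marker contrasts. Exact permutation tests are two-sided over 252 assignments of 5 against 5. The fit was also run on simulated counts that had the same underlying spread for every gene. That run checked the code and does not cover the unequal spread of genes such as Gjb1.

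Genes named were all 8 connexins and Esrrg; the 4 most abundant tested genes among other connexins and pannexins; called members of the transport and partner lists, or otherwise the 4 with the smallest unadjusted p; the 3 most similar genes per connexin; and called or absent markers. Gm4491, Gja3 and Gje1 were added after their values were seen. Some genes that this rule names, and a shared sequence, are not reported here. The 8 connexins and the lists were chosen with earlier results of these data known. Alternatives were DESeq2 1.42.0 (its size factors and its test), upper-quartile factors, no filter, limma 3.58.1 (voom weights; FPKM with pseudocounts of 1 and 0.1), the replicate number as a block, other marker summaries, and each library left out. Replicate numbers are not stated to pair the libraries and were not treated as pairs in the main tests. Same-numbered deviations correlated at 0.0211 to 0.179, which does not settle whether the numbers pair animals. The lists whose medians the results do not give (fibrocytes, endothelium, arterial endothelium, pericytes, skeletal muscle, erythroid cells) had median log2 fold changes of 0.06, 0.04, -0.03, 0.04, -0.58 and -0.62, and those of further cells (hair cells, marginal cells, melanocytes, brain glia, cartilage and bone, macrophages) had -0.08, 0.17, 0.18, -0.27, -0.23 and 0.22.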

Additional observations from a re-analysis of the deposited data

Results flagged for a closer look

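No library stood apart from the other 4 of its group by Dixon's test in any of 36 groups of values examined (CPM of the 8 connexins and Esrrg, the Gjb2 to Gjb6 ratio and the 8 marker contrasts), where chance gives about 1.8 cases.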

How the results depend on the processing

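The number of connexins called was 0 under all 18 alternatives, where between 52 and 348 of all tested genes were called. The number of marker pairs called was 0 under all 14. That 0 says little about stability, since 1 pair alone could not fall below 0.0635 after adjustment. The 32 sign flips allow no p below 0.0625, so that alternative could not call any pair. The log2 fold changes of Gjb2 (0.17 to 0.233), Gja1 (0.16 to 0.39), Gjc1 (0.025 to 0.088), Gjb1 (-0.706 to -0.245) and Gjd2 (-0.759 to -0.375) kept their signs throughout, with the smallest sizes of Gjb1 and Gjd2 from limma on log2(FPKM + 1). With 1 library left out, signs turned for Gjb6 (-0.043 to 0.083, negative at -0.014 without control 3 and -0.043 without cKO 5), Gja4 (-0.125 to 0.035, positive at 0.035 without control 2 and 0.023 without cKO 3) and Gja5 (-0.03 to 0.394, negative without cKO 3). Against markers, Gjb2 ran from 0.22 to 0.31, Gjb6 from 0.02 (without cKO 5, or with the list's median) to 0.13, Gja1 from 0.14 to 0.37, Gjb1 from -0.32 to -0.07 and Gjd2 from -0.45 to -0.31. Also against markers, Gja4 ran from -0.12 to 0.02 (without cKO 3), Gja5 from -0.07 (without cKO 3; -0.04 without control 4) to 0.44, and Gjc1 from -0.09 to 0.02 (without control 2; 0.01 without control 1, 0.0 without cKO 5); the cause was not tested. The log2 fold change of Esrrg was past the threshold in the reported fit but not with limma on FPKM, at 0.57 (pseudocount 1) and 0.61 (pseudocount 0.1), nor with the replicate number as a block, at 0.61; with 1 library left out it ran from 0.54 to 0.7, with an edgeR adjusted p of up to 0.0992, above 0.05 without control 1, 3, 4 or 5 or without cKO 1, 2 or 5. The Gjb2 to Gjb6 difference was 0.12 to 0.24 with 1 library left out. Paired by replicate number as a block it was 0.19 (exact sign-flip p = 0.188, where 32 sign flips allow no less than 0.0625). No connexin was called with the block in edgeR, and sign flips could not call a marker pair. Same-numbered libraries matched best with their own number for controls 2, 3 and 5 only. For Gjb1 and Gja5 the counts of 20 to 112 per library limit what could be seen.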
